A study of Mus musculus with 12 samples.

Results

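The interferon response and MHC class I genes described here are 50 genes, taken by name from the 52015 genes of an mRNA sequencing table of mpkCCD cells, a mouse cortical collecting duct line. They comprise 39 interferon-stimulated genes and their regulators and 11 genes of the MHC class I pathway, and all 50 were found in the table. Nfat5-KO cells carry a CRISPR/Cas9 deletion of Nfat5, the osmosensitive transcription factor, in clones N1 and N3. Scr cells received a scramble guide RNA, carry the label WT for genotype and are not split by clone in the labels. Both were kept for 5 days at 300 mosmol/kg (Scr_300, Nfat5-KO_300) or at 600 mosmol/kg, reached with 100 mM NaCl and 100 mM urea (Scr_600, Nfat5-KO_600). The 12 libraries comprise 2 for each Scr group and 4 for each Nfat5-KO group. The deposited table gives 1 value per gene and group, in FPKM (sequenced fragments scaled by transcript length and library size), so the spread between libraries and between the knockout clones is not visible, and no difference below has a replicate check, an error or a p-value.

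Interferons are secreted proteins that bind paired receptors and, through JAK kinases, activate the STAT proteins. A complex that includes STAT2 and IRF9 binds the interferon-stimulated response element (ISRE) in the promoters of antiviral genes, and the gamma-activated sequence (GAS) is the corresponding element of the response to interferon gamma. Among the products are proteins that bind or degrade viral RNA, GTPases that act on intracellular pathogens, and the MHC class I pathway, in which proteasome peptides are pumped into the endoplasmic reticulum by TAP, loaded with the help of tapasin and shown at the cell surface by a heavy chain paired with beta2-microglobulin. Epithelial cells of the kidney tubule can respond to interferon in this way.

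Throughout, a ratio is the log2 ratio of FPKM + 0.1, and a gene entered a comparison when either group reached 0.5 FPKM. Differences of 2-fold or more on that scale were counted, and the ratio of a single gene is printed only if neither group was under 0.1 FPKM. Nfat5 itself was measured at 5.61 FPKM in Scr_300, 7.93 in Scr_600, 3.47 in Nfat5-KO_300 and 6.88 in Nfat5-KO_600. Its transcript was therefore lower in the knockout at both osmolalities and still present, and the table does not show where the transcript was altered. The epithelial markers Krt8, Krt18, Epcam and Cdh1 lay between 72.7 and 738 FPKM, whereas the principal cell water channel Aqp2 did not exceed 0.245 FPKM. Of the 14 markers of principal cells and collecting duct epithelium 8 reached 0.5 FPKM in a group, and 3 of them were at least 2-fold higher in Nfat5-KO_600 than Scr_600. These were Gata3 (3.41, 4.33, 11.8 and 30.0 FPKM in Scr_300, Scr_600, Nfat5-KO_300 and Nfat5-KO_600), Hsd11b2 (0.383, 0.655, 1.95 and 6.18 FPKM) and the sodium channel subunit Scnn1a (2.95, 1.31, 3.56 and 7.03 FPKM). Their part in the differences below was not tested. Of the 10 leukocyte and macrophage markers, 3 reached 0.5 FPKM in a group, and their summed level was 6.07, 5.41, 3.19 and 3.63 FPKM in Scr_300, Scr_600, Nfat5-KO_300 and Nfat5-KO_600. The 3 were Csf1r, Cd68 and Cd79a. Csf1r was lower in the knockout, with a ratio of -1.41 at 300 and -0.92 at 600 mosmol/kg. Cd68 was lower by less than 2-fold (-0.52 and -0.36). Cd79a was higher in the knockout at 600 mosmol/kg (0.49) and under 0.5 FPKM in both groups at 300 mosmol/kg. The defining leukocyte marker Ptprc (CD45) was at or below 0.0224 FPKM in every group. In such bulk RNA, fewer responding cells and less RNA per cell cannot be told apart.

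At 600 mosmol/kg the interferon-stimulated genes were higher than at 300 mosmol/kg in Scr cells, and less so in Nfat5-KO cells. In Scr cells 21 of the 50 genes were at least 2-fold higher at 600 mosmol/kg and 0 at least 2-fold lower, where 4.81% and 2.86% of the 12929 genes compared were. All 21 lie outside the MHC class I pathway. In Nfat5-KO cells 8 of the 50 were at least 2-fold higher and 0 lower, where 6.25% and 4.11% of 12982 genes were. The median ratio over the 50 genes was 0.88 in Scr cells, against 0.40 in the knockout, and the median of all genes compared was -0.04 for either genotype. At a limit of 1.5-fold, 28 genes were higher and 1 lower in Scr cells (10.4% and 9.01% of all genes), and 12 were higher and 1 lower in the knockout (14.1% and 13.8%). In Scr cells 43 of the 50 genes entered the comparison and 9 of them did so through 1 group, while in Nfat5-KO cells 36 entered and 3 did so through 1 group. With both groups at 0.5 FPKM or more, 13 of the 21 and 6 of the 8 remain.

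Differences between the genotypes were found mainly in the 600 mosmol/kg cultures. At 300 mosmol/kg Nfat5-KO cells had 2 of the 50 genes at least 2-fold below Scr cells, namely Ifit3b and Oasl1, and 0 above. Among the 12704 genes compared, 2.44% were lower and 1.73% higher by that measure. At 600 mosmol/kg 17 of the 50 genes were at least 2-fold lower in Nfat5-KO cells and 0 higher, where 3.68% of the 13063 genes compared were lower and 3.76% higher. The median ratio over the 50 genes was -0.19 at 300 mosmol/kg and -0.79 at 600 mosmol/kg, and the median of all genes was -0.00 and -0.02. At 300 mosmol/kg 35 genes entered the comparison, 2 of them through 1 group, and at 600 mosmol/kg 43 did, 8 of them through 1 group. Of the 17 genes, 10 reached 0.5 FPKM in both groups. At a limit of 1.5-fold, 2 genes were higher and 6 lower in the knockout at 300 mosmol/kg (5.27% and 6.21% of all genes), and 0 were higher and 29 lower at 600 mosmol/kg (9.84% and 9.44%).

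**Figure D1:**
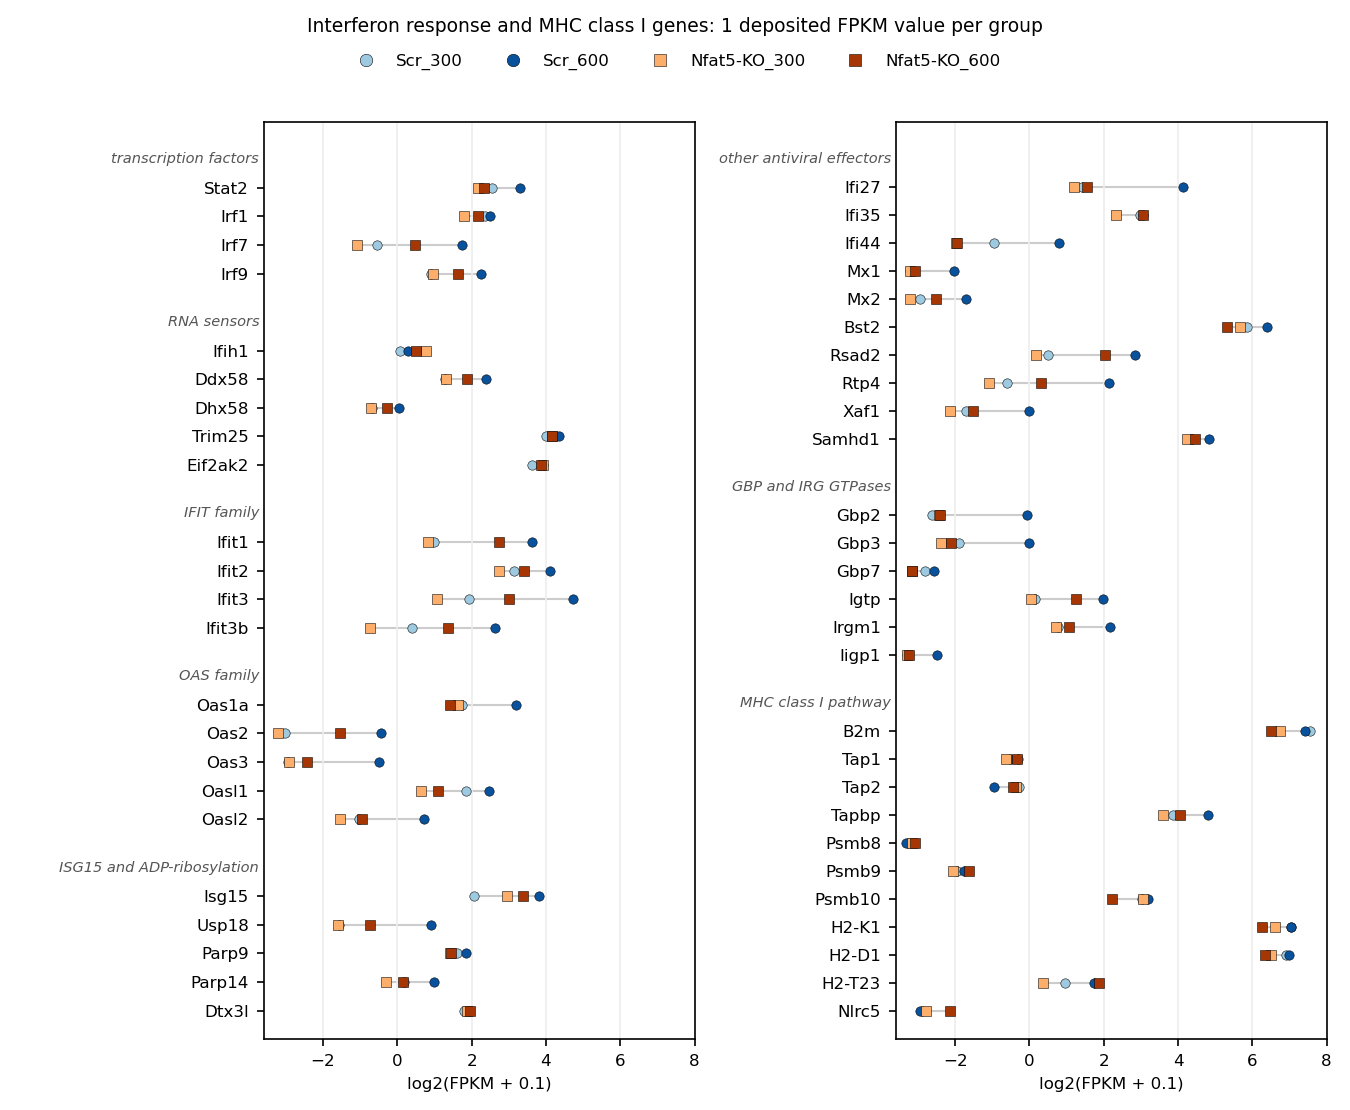
Level of the 50 genes, ordered by role, as log2(FPKM + 0.1) on the x axis, with 1 point per group (circles Scr, squares Nfat5-KO, pale 300 and dark 600 mosmol/kg) and a grey line from the lowest to the highest group. Scr_600 is the highest group for 39 of the 50 genes, among them Tapbp, Psmb10 and H2-D1 of the MHC class I pathway.

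Scr_600 held the highest value for 39 of the 50 genes, and for 35 of the 43 that reached 0.5 FPKM anywhere, where it did so for 21.2% of the 13414 such genes of the table. Ifi44, Oas2, Oas3, Oasl2, Gbp2, Gbp3 and Xaf1 reached 0.5 FPKM in Scr_600 alone. For these genes the filter itself fixed Scr_600 as the highest group. Among these 43 genes the difference between 600 and 300 mosmol/kg was smaller in the knockout for 38 (52.0% of all genes). It was smaller by at least 1 on the log2 scale for 12 of them (Isg15, Ifi27, Ifi44, Oas1a, Oas3, Oasl2, Usp18, Rtp4, Gbp2, Gbp3, Irgm1 and Xaf1), where 3.16% of all genes were, and larger by that amount for 0 (3.88% of all genes). Oas3, Gbp2 and Gbp3 had a group under 0.1 FPKM, so their differences rest on the added 0.1, and with 0.1 FPKM or more in every group 9 of 39 genes remain, beside 2.53% of all genes. These 9 still include Ifi44, Oasl2 and Xaf1, which passed 0.5 FPKM through Scr_600 alone. The median of the difference was -0.55 over the 43 genes and -0.52 over all 50, beside -0.01 over all genes. No interaction could be tested on 1 value per group. The osmolality counts in Scr cells, the knockout counts at 600 mosmol/kg, the highest-group counts and the differences here all use Scr_600. They are therefore not independent results.

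**Figure D2:**
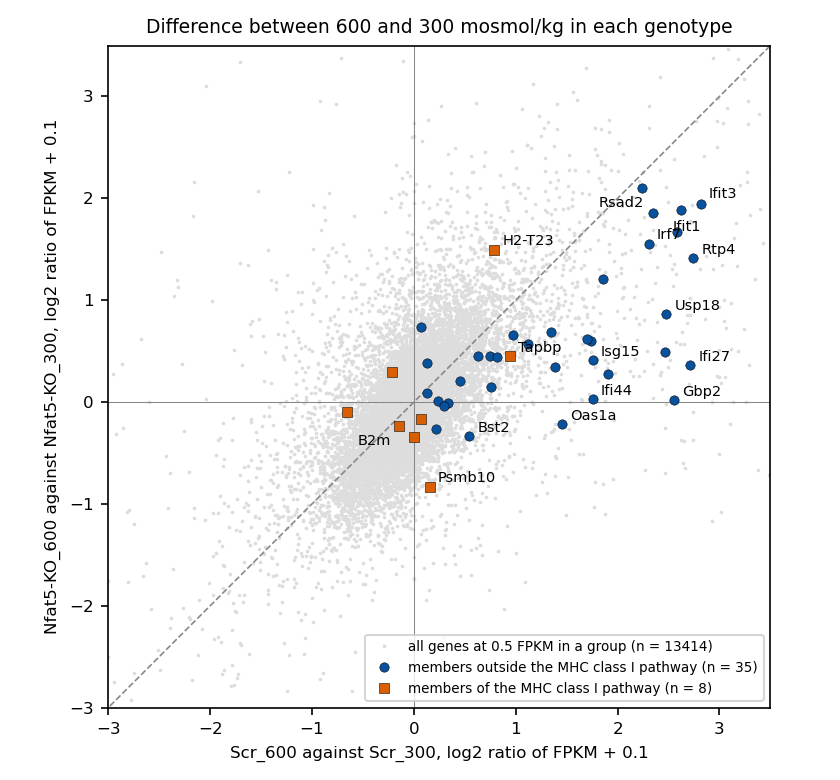
Log2 ratio of FPKM + 0.1 between 600 and 300 mosmol/kg in Scr cells (x axis) and in Nfat5-KO cells (y axis) for the 43 genes that reached 0.5 FPKM anywhere (circles, 35 outside the MHC class I pathway; squares, 8 within it) over all 13414 such genes (grey; 54 lie outside the axes). The dashed line marks equal ratios. Most circles lie to the right of 0 and below the line, and H2-T23 lies above it.

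Binding sites for the interferon-activated factors were looked for as letters in the promoters, since the genes that were higher at 600 mosmol/kg are textbook targets of these factors. The genes were listed for their part in the interferon response, so a high share of such sites can come from that choice. Such a share says nothing about osmolality. The RefSeq promoter table (GRCm38.p6, from 250 bases before to 50 bases after each start) held 38 of the 50 genes. On either strand, the ISRE core GAAANNGAA occurred in 21 of the 38, or 55.3%, where 9.76% of all 27025 genes with a promoter held it. Outside the MHC class I pathway 19 of 29 promoters held it, and within it 2 of 9 did, those of B2m and H2-T23. The GAS core TTCNNNGAA occurred in 10 of the 38 (26.3%, all genes 9.55%). The core of the tonicity element bound by NFAT5, TGGAAANN, occurred in 12 of the 38 (31.6%, all genes 23.8%). It occurred in 8 of the 29 outside the MHC class I pathway and in 4 of the 9 within it. Of the 9042 genes with a promoter that reached 0.5 FPKM in a group, 8.11% held the ISRE core, 8.2% the GAS core and 18.8% the tonicity element core. Of 36 ISRE core matches, 1 shared bases with a GAS core match and 3 with a tonicity element core match.

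Stretches of 200 bases before the start are shown for Ifit3 and Isg15, which differ in how far they were higher at 600 mosmol/kg in the knockout, for Oas1a, which was higher in Scr cells and not in Nfat5-KO cells, and for B2m, which did not differ by 2-fold with osmolality. They were chosen after these values were known. They lie at chr19:34583329-34583528 (plus strand), chr4:156200819-156201018 (minus strand), chr5:120907526-120907725 (minus strand) and chr2:122147487-122147686 (plus strand). They are written 5′ to 3′ on the strand of the gene, and capitals mark the ISRE cores on either strand and, in Oas1a, also the GAS core.
Ifit3: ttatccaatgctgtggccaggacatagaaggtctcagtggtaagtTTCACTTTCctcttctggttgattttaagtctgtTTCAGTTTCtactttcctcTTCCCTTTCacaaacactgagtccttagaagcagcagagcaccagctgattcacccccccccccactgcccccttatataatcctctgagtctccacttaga
Isg15: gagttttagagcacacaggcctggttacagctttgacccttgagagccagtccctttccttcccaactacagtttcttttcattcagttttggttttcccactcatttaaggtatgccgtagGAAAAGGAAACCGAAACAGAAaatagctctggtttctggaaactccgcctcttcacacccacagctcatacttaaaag
Oas1a: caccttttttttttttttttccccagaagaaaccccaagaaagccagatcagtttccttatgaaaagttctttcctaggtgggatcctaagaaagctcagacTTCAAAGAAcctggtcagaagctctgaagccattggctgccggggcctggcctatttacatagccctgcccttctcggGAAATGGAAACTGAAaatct
B2m: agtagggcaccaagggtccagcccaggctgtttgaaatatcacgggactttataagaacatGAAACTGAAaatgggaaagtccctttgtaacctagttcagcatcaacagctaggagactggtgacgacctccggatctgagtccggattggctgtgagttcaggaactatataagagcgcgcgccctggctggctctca

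In these stretches Ifit3 has 3 separate ISRE cores, beginning 155, 121 and 102 bases before the start. Isg15 has 3 cores that overlap, of which the outermost begins 78 bases before the start. Oas1a has 2 overlapping cores that begin 20 and 14 bases before the start, and its GAS core begins 98 bases before it. B2m has 1 core, 139 bases before the start. Over the promoters of the 50 genes, 28 of the 36 ISRE core matches began within the 150 bases before the start. Outside the MHC class I pathway the 19 genes with an ISRE core had a median ratio of 1.75 between Scr_600 and Scr_300 and of 0.27 between Nfat5-KO_600 and Nfat5-KO_300. The 10 genes without it had medians of 0.80 and 0.61. No filter on low values was applied to these medians. Among genes with the core, Gbp2, Gbp3, Oas3 and Ifi44 reached 0.5 FPKM in Scr_600 alone, and Gbp7 in no group. Among those without it, Oasl2 and Xaf1 reached it in Scr_600 alone. Ifi27, Rtp4 and Usp18 had no promoter to search and are in neither set. Whether the sets differ was therefore not tested. A match of letters is a description of the sequence, and binding was not measured.

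The transcription factors of the response come first. Irf7, which amplifies interferon production, was at 0.583 FPKM in Scr_300, 3.27 in Scr_600, 0.372 in Nfat5-KO_300 and 1.29 in Nfat5-KO_600. It was higher at 600 mosmol/kg in both genotypes, with ratios of 2.30 in Scr and 1.56 in Nfat5-KO cells, and lower in the knockout at 600 mosmol/kg, with a ratio of -1.28. Irf9, the DNA-binding partner of STAT2, was at 1.78, 4.68, 1.83 and 3.01 FPKM in Scr_300, Scr_600, Nfat5-KO_300 and Nfat5-KO_600. The genotypes were close for Irf9 at 300 mosmol/kg (ratio 0.04), and the step to 600 mosmol/kg had a ratio of 1.35 in Scr and 0.68 in Nfat5-KO cells. Stat2, the other partner in this complex, was at 5.73, 9.76, 4.44 and 4.94 FPKM in the same order. Its ratio of Nfat5-KO_600 to Scr_600 was -0.97, just under 2-fold. Irf1, a factor that responds to interferon gamma and other stimuli, lay between 3.38 and 5.52 FPKM and was under 2-fold in all 4 comparisons. Exons of Irf7 and Irf9 overlap those of Phrf1 and Rnf31 by 45 and 123 bases in GENCODE M21, so a small share of their reads could be counted for either gene.

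The 5 sensors of viral RNA and their cofactors had a median ratio of -0.18 between Nfat5-KO_600 and Scr_600 and of 0.34 between Scr_600 and Scr_300, nearer to 0 than the medians of the other roles outside the MHC class I pathway. Ddx58 (RIG-I), which detects RNA with a triphosphate end, was at 2.34 FPKM in Scr_300, 5.18 in Scr_600, 2.39 in Nfat5-KO_300 and 3.60 in Nfat5-KO_600. It was the only one of the 5 with a 2-fold difference, found in Scr cells, with a ratio of 1.12 there and of 0.57 in Nfat5-KO cells. Ifih1 (MDA5), Dhx58 (LGP2), Trim25, the ubiquitin ligase of the RIG-I pathway, and Eif2ak2 (PKR), the RNA-activated kinase that halts translation, were under 2-fold in all 4 comparisons. Trim25 and Eif2ak2 were expressed at 12.4 FPKM or more in every group, and the ratios of these 4 genes between Nfat5-KO_600 and Scr_600 lay between -0.32 and 0.21.

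The IFIT proteins, which bind viral RNA that lacks the cap marks of the host, included the genes with the largest steps with osmolality in Nfat5-KO cells, which were present in Scr cells too. Ifit3 was at 3.68 FPKM in Scr_300, 26.5 in Scr_600, 2.01 in Nfat5-KO_300 and 7.99 in Nfat5-KO_600. The ratio of 600 to 300 mosmol/kg was 2.82 in Scr and 1.94 in Nfat5-KO cells, and Nfat5-KO_600 was lower than Scr_600 with a ratio of -1.72. Its neighbour Ifit3b was at 1.21, 6.07, 0.501 and 2.48 FPKM in Scr_300, Scr_600, Nfat5-KO_300 and Nfat5-KO_600. For Ifit3b the knockout was lower by nearly the same ratio at both osmolalities (-1.12 and -1.26), and the steps with osmolality were alike in size (2.24 in Scr and 2.10 in Nfat5-KO cells). Ifit1, the family member that binds uncapped RNA ends, was at 1.90, 12.2, 1.69 and 6.51 FPKM in that order. Its ratio was 2.62 in Scr and 1.89 in Nfat5-KO cells with osmolality, and -0.89 between Nfat5-KO_600 and Scr_600. Ifit2, at 8.71, 17.2, 6.63 and 10.6 FPKM in that order, was under 2-fold in all 4 comparisons, its largest ratio being 0.97 in Scr cells.

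The 4 IFIT genes lie together on chromosome 19 between positions 34550694 and 34650009 (GRCm38), and their summed level was 15.5 FPKM in Scr_300, 62.0 in Scr_600, 10.8 in Nfat5-KO_300 and 27.5 in Nfat5-KO_600. Ifit3 and Ifit3b are near-copies: 51.2% of the 50-base windows of the Ifit3 transcript also occur in that of Ifit3b. How reads were shared between them is uncertain. Over the 50 genes, the median ratio of the other genes within 10 Mb lay between -0.18 and 0.34 in the comparison of Nfat5-KO_600 with Scr_600.

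The enzymes of the OAS family make the signal that activates RNase L, and some members are inactive relatives of these enzymes. All 5 OAS genes described here stood 2-fold or more below Scr_600 in Nfat5-KO_600, where 3.68% of all genes did. Of the family members set beside them, Oas1b (-0.93) and Oas1c (-0.82) were under 2-fold in that comparison, and Oas1g was not (-2.82). Oas2, Oas3 and Oasl2 entered this comparison through Scr_600 alone, and with a pseudocount of 1 FPKM the ratios of Oas2 (-0.40) and Oasl2 (-0.84) came under 2-fold. Oas3 was left out of that check because its level in Nfat5-KO_600 was under 0.1 FPKM, so its ratio rests on the added 0.1. Oas1a was at 3.27 FPKM in Scr_300, 9.11 in Scr_600, 3.02 in Nfat5-KO_300 and 2.59 in Nfat5-KO_600. It was higher at 600 mosmol/kg in Scr cells (ratio 1.45) and not in Nfat5-KO cells (-0.22), and the genotypes differed at 600 (-1.78) more than at 300 mosmol/kg (-0.11). Oasl2 was at 0.390, 1.54, 0.244 and 0.420 FPKM in Scr_300, Scr_600, Nfat5-KO_300 and Nfat5-KO_600, with a ratio of 1.74 for osmolality in Scr cells and of 0.60 in the knockout. Oasl1, a relative that represses translation of Irf7, was at 3.47, 5.43, 1.46 and 2.03 FPKM in that order. Unlike Oas1a, Oasl1 was lower in the knockout at 300 mosmol/kg (-1.20) as well as at 600 mosmol/kg (-1.38), and its step with osmolality was under 2-fold in both genotypes.

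Oas2 and Oas3 were close to 0 except in Scr_600. Oas2 was at 0.0238 FPKM in Scr_300, 0.643 in Scr_600, 0.00861 in Nfat5-KO_300 and 0.245 in Nfat5-KO_600. Oas3 was at 0.0295, 0.613, 0.0325 and 0.0865 FPKM in the same order. No other group of either gene reached 0.5 FPKM. Of the 50-base windows of the Oas1a transcript, 57.6% also occur in Oas1g, so the counts of this pair are uncertain, and Oas1g followed the same order of groups, at 0.510, 1.78, 0.278 and 0.165 FPKM.

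Isg15, a ubiquitin-like protein that is attached to other proteins, had the largest ratio in favour of the knockout at 300 mosmol/kg among the 50 genes, although under 2-fold. It was at 4.09 FPKM in Scr_300, 14.0 in Scr_600, 7.70 in Nfat5-KO_300 and 10.3 in Nfat5-KO_600. Its ratio of Nfat5-KO to Scr cells was 0.90 at 300 and -0.45 at 600 mosmol/kg, so the order of the genotypes turned, and the step with osmolality was 1.75 in Scr and 0.41 in Nfat5-KO cells. Usp18, which removes ISG15 and dampens the type I interferon receptor, was at 0.239, 1.79, 0.230 and 0.501 FPKM in Scr_300, Scr_600, Nfat5-KO_300 and Nfat5-KO_600. The genotypes were close for Usp18 at 300 mosmol/kg (-0.04), and Nfat5-KO_600 was lower than Scr_600 (-1.65). The ADP-ribosylation genes Parp9, Parp14 and Dtx3l lay between 0.717 and 3.79 FPKM and were under 2-fold in all 4 comparisons. Parp9 and Dtx3l overlap by 458 exon bases on opposite strands.

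The other antiviral effectors included genes with large differences between the genotypes at 600 mosmol/kg. Ifi27, a small mitochondrial and nuclear membrane protein, was at 2.58 FPKM in Scr_300, 17.5 in Scr_600, 2.18 in Nfat5-KO_300 and 2.83 in Nfat5-KO_600. Its level in Nfat5-KO_600 was close to that in both 300 mosmol/kg groups, and the ratio of Nfat5-KO_600 to Scr_600 was -2.58. Ifi44, an interferon-induced protein with a GTP-binding motif, was at 0.414, 1.64, 0.154 and 0.160 FPKM in Scr_300, Scr_600, Nfat5-KO_300 and Nfat5-KO_600. Both knockout groups were below both Scr groups for Ifi44, with a ratio of -2.74 at 600 mosmol/kg. Ifi44 entered that comparison through Scr_600 alone, and with a pseudocount of 1 FPKM its ratio was -1.18, nearer to 0 than those of Ifi27 (-2.27), Ifit3 (-1.61), Oas1a (-1.49) and Rtp4 (-1.30).

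Rsad2 (viperin), which makes a nucleotide that ends viral RNA chains, was at 1.32, 7.11, 1.03 and 3.98 FPKM in Scr_300, Scr_600, Nfat5-KO_300 and Nfat5-KO_600. It was among the genes with a 2-fold step in both genotypes (2.34 in Scr and 1.86 in Nfat5-KO cells). Rtp4, a chaperone of receptors at the cell surface, was at 0.556, 4.28, 0.369 and 1.15 FPKM in that order, with steps of 2.74 and 1.41 and a ratio of -1.81 between the genotypes at 600 mosmol/kg. Xaf1, a protein that promotes cell death, was at 0.204, 0.884, 0.126 and 0.247 FPKM in the same order, and only Scr_600 exceeded 0.5 FPKM. Bst2 (tetherin), which holds budding virus at the cell surface, was the most abundant of the genes outside the MHC class I pathway, at 57.5 FPKM in Scr_300, 83.8 in Scr_600, 50.5 in Nfat5-KO_300 and 40.0 in Nfat5-KO_600. Its difference between the genotypes at 600 mosmol/kg was just over 2-fold (-1.06). Samhd1, which hydrolyses deoxynucleotides, and Ifi35 were under 2-fold in all 4 comparisons, at 4.93 to 28.3 FPKM, and the dynamin-like GTPases Mx1 and Mx2 were at or below 0.207 FPKM in every group.

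The guanylate-binding proteins and the immunity-related GTPases, which act on membranes around intracellular pathogens, were expressed at low levels. Igtp was at 1.00 FPKM in Scr_300, 3.88 in Scr_600, 0.927 in Nfat5-KO_300 and 2.27 in Nfat5-KO_600, with a step of 1.85 in Scr and 1.21 in Nfat5-KO cells. Irgm1 was at 1.61, 4.39, 1.54 and 1.98 FPKM in that order. The genotypes were close for both genes at 300 mosmol/kg (ratios -0.10 and -0.07), and at 600 mosmol/kg Irgm1 was lower in the knockout by 2-fold (-1.11) whereas Igtp was not (-0.74). Gbp2 was at 0.0636, 0.860, 0.0857 and 0.0884 FPKM in Scr_300, Scr_600, Nfat5-KO_300 and Nfat5-KO_600, and Gbp3 was at 0.167, 0.896, 0.0912 and 0.131 FPKM. For both, Scr_600 alone exceeded 0.5 FPKM. Gbp7 and Iigp1 were at or below 0.0796 FPKM in every group. Igtp shares 162 exon bases with Irgm2 on the same strand, and 12.3% of the windows of its transcript.

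**Figure D3:**
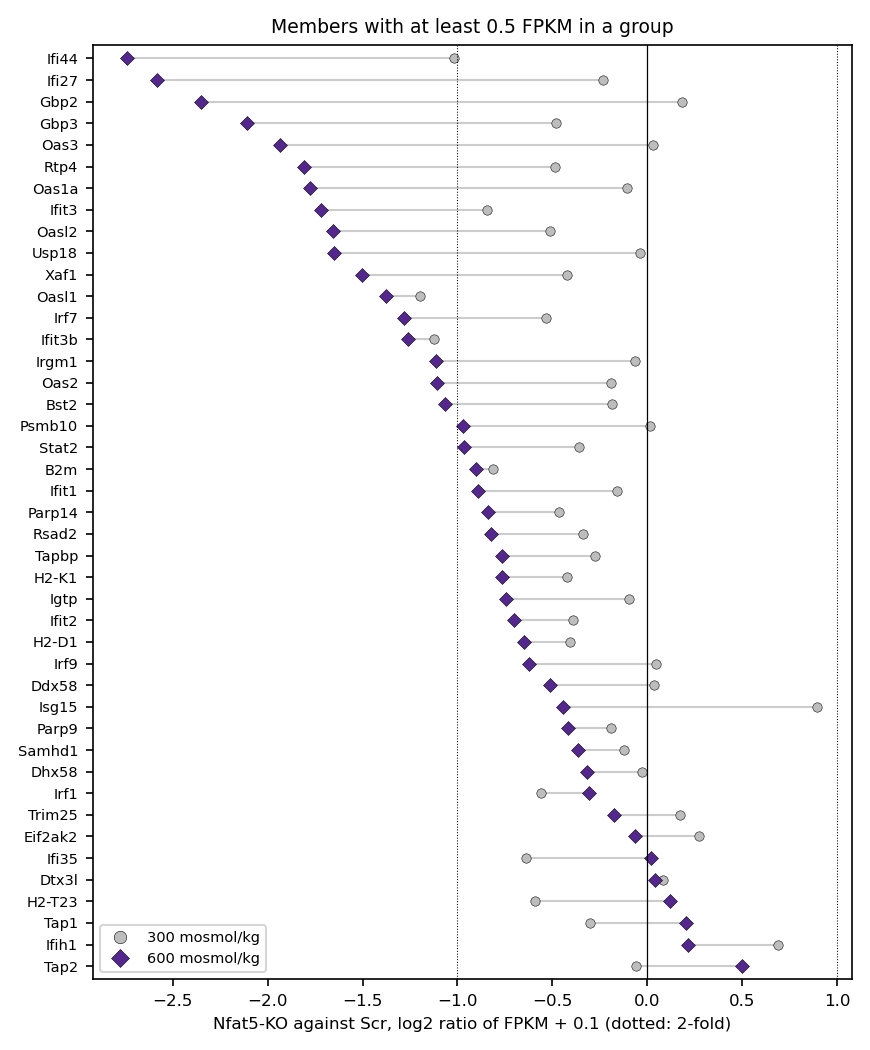
Log2 ratio of FPKM + 0.1 between Nfat5-KO and Scr cells at 300 mosmol/kg (grey circles) and at 600 mosmol/kg (purple diamonds) for the 43 genes that reached 0.5 FPKM anywhere, ordered by the ratio at 600 mosmol/kg, with dotted lines at 2-fold. The diamonds of 17 genes lie beyond 2-fold lower, as do the circles of Oasl1, Ifit3b and Ifi44, the last of which was under 0.5 FPKM in both groups at 300 mosmol/kg. Ratios of genes with a group under 0.1 FPKM (Gbp2, Gbp3, Oas2 and Oas3) depend on the added 0.1.

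In the MHC class I pathway Scr_600 was the highest group for 3 of 11 genes, namely Tapbp, Psmb10 and H2-D1. Of the 11 genes, 8 entered each comparison, and Psmb8, Psmb9 and Nlrc5 entered none. Among the 8, 0 were at least 2-fold different between the genotypes at either osmolality, 0 with osmolality in Scr cells and 1, H2-T23, with osmolality in Nfat5-KO cells. Of all genes, 1.73% to 6.25% were higher and 2.44% to 4.11% lower by 2-fold, depending on the comparison. At such shares, 0 or 1 of 8 genes does not set the pathway apart at the 2-fold limit. B2m, the beta2-microglobulin light chain, was at 189 FPKM in Scr_300, 171 in Scr_600, 108 in Nfat5-KO_300 and 91.3 in Nfat5-KO_600. The heavy chain H2-K1 was at 131, 130, 97.3 and 76.7 FPKM in that order, and the heavy chain H2-D1 at 120, 126, 90.5 and 80.4 FPKM. All of these were lower in both knockout groups than in both Scr groups, with ratios of -0.81, -0.42 and -0.41 at 300 mosmol/kg and of -0.90, -0.77 and -0.65 at 600 mosmol/kg for B2m, H2-K1 and H2-D1. Their steps with osmolality were small, from -0.15 to 0.07 in Scr cells and from -0.34 to -0.17 in Nfat5-KO cells. At 600 mosmol/kg the differences of B2m, H2-K1 and H2-D1 exceeded 1.5-fold, as they did for 9.44% of all genes in that direction. Their summed level was 440 FPKM in Scr_300, 427 in Scr_600, 295 in Nfat5-KO_300 and 248 in Nfat5-KO_600. Of the windows of the H2-K1 and H2-D1 transcripts, 8.11% and 14.3% also occur in other genes, so a part of their reads is uncertain.

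H2-T23, the nonclassical heavy chain Qa-1, had another order, at 1.85 FPKM in Scr_300, 3.27 in Scr_600, 1.20 in Nfat5-KO_300 and 3.56 in Nfat5-KO_600. It was the only gene of the 50 with a 2-fold step in Nfat5-KO cells and less than that in Scr cells (0.78). The difference of these steps was not tested. Tapbp (tapasin), which loads peptide onto the heavy chain, was at 14.5, 27.9, 11.9 and 16.4 FPKM in the order Scr_300, Scr_600, Nfat5-KO_300 and Nfat5-KO_600. Its step in Scr cells (0.94) was just under 2-fold, and in contrast to B2m its highest group was Scr_600. Tap1, a chain of the peptide transporter, was at 0.702, 0.591, 0.551 and 0.696 FPKM in that order, and its partner Tap2 at 0.717, 0.418, 0.685 and 0.633 FPKM. The transporter genes had ratios from -0.66 to 0.50 over the 4 comparisons and no common order of groups. Tapbp shares 149 exon bases with Zbtb22 on the same strand, and Tap1 shares 212 with Psmb9 on the opposite strand.

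Of the immunoproteasome subunits, which replace the constitutive catalytic subunits and alter the peptides made, Psmb10 alone was expressed. It was at 8.10 FPKM in Scr_300, 9.02 in Scr_600, 8.18 in Nfat5-KO_300 and 4.56 in Nfat5-KO_600. The level of Psmb10 was alike in the first 3 of these groups and lower in Nfat5-KO_600, with a ratio of -0.97 to Scr_600. Its constitutive counterpart Psmb7 was at 35.1, 27.5, 35.7 and 24.4 FPKM, so that Psmb10 amounted to 23.1%, 32.8%, 22.9% and 18.7% of Psmb7 in that order. Psmb9 was at 0.161, 0.195, 0.139 and 0.223 FPKM, and Psmb8 did not exceed 0.0175 FPKM and is listed at 0 in Scr_600. Nlrc5, the transactivator of MHC class I genes, was at 0.0338, 0.0310, 0.0451 and 0.126 FPKM, under the minimum in every group but highest in Nfat5-KO_600. Of 22 further MHC class I and peptide-loading genes, such as H2-Q4, H2-T22, Calr and Pdia3, 0 were at least 2-fold different in any of the 4 comparisons, with 12 or 13 of them entering each. Of all genes, 1.73% to 6.25% were higher and 2.44% to 4.11% lower by that measure, so a count of 0 is near those shares.

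**Figure D4:**
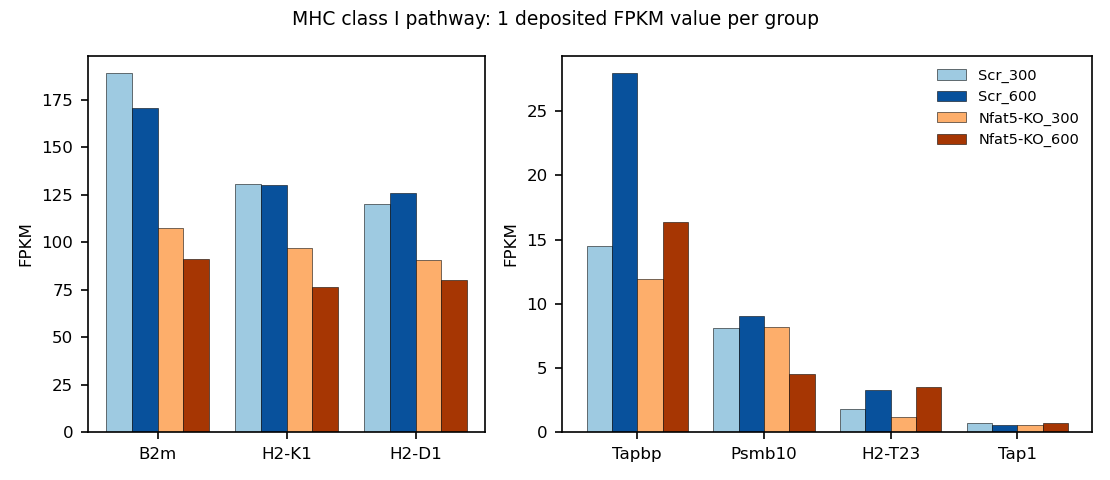
FPKM of 7 genes of the MHC class I pathway in the 4 groups, 1 bar per group and no error bars since each group has 1 deposited value. B2m, H2-K1 and H2-D1 are lower in both knockout groups, from 76.7 to 108 FPKM, than in both Scr groups, from 120 to 189 FPKM, whereas Tapbp is highest in Scr_600 and Psmb10 lowest in Nfat5-KO_600.

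Upstream of these genes, the interferons themselves were not detected at a level that could be compared. Of 12 interferon genes, including Ifnb1, Ifng and Ifnl3, 5 were listed at 0 in every group, and the highest single value was 0.153 FPKM, in Nfat5-KO_600. The receptors and the JAK and STAT genes were present in all groups: all 12 genes reported here passed 0.5 FPKM and 0 differed by 2-fold in any of the 4 comparisons. Of all genes, 1.73% to 6.25% were higher and 2.44% to 4.11% lower by 2-fold, so 0 of 12 is near those shares. Ifnar1, a chain of the type I interferon receptor, was at 11.1, 10.7, 10.4 and 11.3 FPKM in Scr_300, Scr_600, Nfat5-KO_300 and Nfat5-KO_600.

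Among the genes that sense cytosolic DNA, Tmem173 and Mb21d1 were lower in the knockout. Tmem173 (STING), the adaptor that passes the DNA signal to TBK1 and IRF3, was at 6.23 FPKM in Scr_300, 18.0 in Scr_600, 1.30 in Nfat5-KO_300 and 5.99 in Nfat5-KO_600. It was lower in the knockout at both osmolalities (-2.18 at 300 and -1.57 at 600 mosmol/kg) and higher at 600 mosmol/kg in both genotypes (1.52 in Scr and 2.12 in Nfat5-KO cells). Mb21d1 (cGAS), the DNA sensor upstream of it, was at 0.665, 1.05, 0.238 and 0.380 FPKM in that order, lower in the knockout by a ratio of -1.18 at 300 and -1.26 at 600 mosmol/kg. Mb21d1 entered both of these comparisons through the Scr group alone. Of the 14 listed sensors and adaptors, 10 entered each comparison of the genotypes. Tmem173 and Mb21d1 were the only ones that differed by 2-fold. Of all genes, 2.44% were lower by that measure at 300 and 3.68% at 600 mosmol/kg. Mavs, Tbk1 and Irf3, which act downstream of the RNA sensors, the DNA sensors or both, lay between 7.61 and 16.6 FPKM and were under 2-fold in all 4 comparisons. Among 14 negative regulators, Socs1, an inhibitor of the JAK kinases, was at 0.645, 0.321, 1.38 and 0.794 FPKM in the same order and 2-fold higher in Nfat5-KO_600 than in Scr_600 (1.09), and the others were under 2-fold. Socs1 entered that comparison through Nfat5-KO_600 alone, and 3.76% of all genes were higher by 2-fold in it. At 300 mosmol/kg its ratio between the genotypes was nearly the same (0.99).

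**Figure D5:**
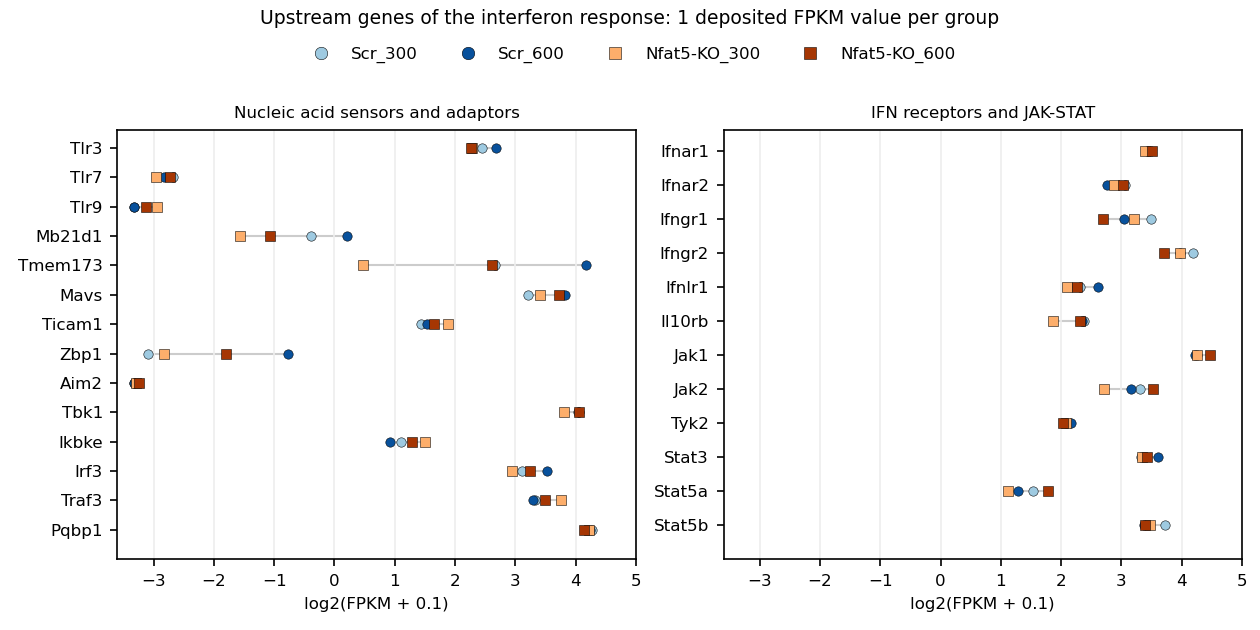
Level of 14 nucleic acid sensors and adaptors (left) and of 12 interferon receptor, JAK and STAT genes (right) as log2(FPKM + 0.1), with 1 point per group. Tmem173 and Mb21d1 are lower in both knockout groups than in the Scr group of the same osmolality, and the points of the receptor and kinase genes lie close together.

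Interferon-stimulated genes that are not among the 50 were set beside them. Of 60 further such genes, 36 entered the comparison of Scr_600 with Scr_300 and 12 were at least 2-fold higher (4.81% of all genes) and 0 lower, among them Cmpk2, Oas1b, Irgm2, Cxcl10 and Ccl5. In Nfat5-KO cells 5 of the 60 were at least 2-fold higher (6.25% of all genes) and 0 lower. Between Nfat5-KO_600 and Scr_600, 7 were at least 2-fold lower (3.68% of all genes) and 1 higher, and between the genotypes at 300 mosmol/kg 1 was lower, Lgals3bp (2.44% of all genes). With both groups at 0.5 FPKM or more, 8 of the 12, 4 of the 5, 3 of the 7 and 0 of the 1 remain. The medians over the 60 genes were 0.41 for osmolality in Scr cells, 0.07 in Nfat5-KO cells and -0.32 for the knockout at 600 mosmol/kg, nearer to 0 than those of the 50 genes. These medians include genes that did not enter, namely 24, 26 and 24 of the 60 in that order, beside 7, 14 and 7 of the 50. The added 0.1 draws the ratios of such genes towards 0. Lgals3bp, a secreted glycoprotein, was at 0.517, 3.73, 0.148 and 0.300 FPKM in Scr_300, Scr_600, Nfat5-KO_300 and Nfat5-KO_600. Slfn2, a protein that protects transfer RNA, was at 0.378, 2.03, 0.113 and 0.154 FPKM in that order, the order of groups that Ifi44 had. Gbp8 went the other way, at 0.567, 0.614, 0.996 and 3.12 FPKM, highest in Nfat5-KO_600. The chemokine Cxcl10 was at 2.06, 7.51, 3.04 and 7.67 FPKM, with no difference of 2-fold between the genotypes.

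Genes of the NF-kB pathway, which shares inducers with the interferon response, were set beside them as well. Of 14 such genes, 1 was at least 2-fold higher in Scr_600 than in Scr_300 (4.81% of all genes) and 1 lower (2.86%), while in the knockout 0 were higher with osmolality and 4 lower (4.11% of all genes), namely Tnfaip3, Vcam1, Cxcl1 and Cxcl2. Vcam1 and Ccl2 were lower in Nfat5-KO_300 than Scr_300 (2.44% of all genes), and Ccl2, Cxcl1 and Cxcl2 stood 2-fold or more below Scr_600 in Nfat5-KO_600 (3.68%). The gene that was higher in Scr_600, Ccl2, a chemokine for monocytes, was at 0.640, 4.52, 0.0712 and 0.0129 FPKM in Scr_300, Scr_600, Nfat5-KO_300 and Nfat5-KO_600, while Rela, the main activating subunit, lay between 57.9 and 69.6 FPKM. Of 9 MHC class II genes 3 passed 0.5 FPKM, and Cd74, the invariant chain, was the only one with a 2-fold difference, lower in Nfat5-KO_600 (0.324 FPKM) than in Scr_600 (1.03 FPKM). Cd74 entered that comparison through Scr_600 alone, and 3.68% of all genes were lower by 2-fold in it.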

How the data were processed

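mRNA of mpkCCD cells was sequenced by the authors after poly-A selection. Per the study's methods and the submitters' processing notes, adapter-containing, poly-N and low-quality reads were discarded, the rest were mapped to GRCm38 (mm10) with HISAT2, and reads per gene were counted with HTSeq. The deposited FPKM values, in which the authors divided counts by gene length and library total, give 1 value per group. How libraries were combined, tool versions, strand setting, annotation release and read depth are not given in the sources used here, so no interval or detection limit was computed. Because FPKM sums differ between groups (212247 to 253756), a common sum was one alternative.

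Of 54839 rows, 2436 held no value, 311 were exact duplicates, and 37 symbols with several rows were left out. Ratios were taken as log2 of FPKM + 0.1 over genes with at least 0.5 FPKM in 1 of the groups compared, in Python 3.11.15 with pandas 2.3.3. The planned test for values per library was not possible, and no p-value was computed. The ratio and the 2-fold call were run on simulated data for a single comparison, with changes well above 2-fold in genes well above 0.5 FPKM. The other steps were not tested in that way. Groups follow the labels. Positions, exon overlaps and transcripts came from GENCODE M21 (GRCm38), and promoters from RefSeq. The 50 genes and all gene lists were chosen with earlier results of these data known. Genes were named with values where they had 0.5 FPKM in a group and a 2-fold difference in a comparison, or belong to the MHC class I pathway, and others as ranges or as examples chosen for their role. Of the marker lists, the 4 intercalated cell, 4 fibroblast and 3 endothelial genes were all under 0.5 FPKM, and 1 of 3 plasmacytoid dendritic cell genes, Tcf4, was not. One gene of the receptor and JAK-STAT list is not reported here. Alternatives were other pseudocounts, filters, scalings and a 1.5-fold limit.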

Additional observations from a re-analysis of the deposited data

How the results depend on the processing

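The direction of the 4 medians over the 50 genes and of the median difference of the steps was kept under every alternative run. Without a filter on low values 3 genes were at least 2-fold lower in Nfat5-KO_300, 18 in Nfat5-KO_600, 23 higher with osmolality in Scr cells and 9 in the knockout, and the medians, taken over all 50 genes, do not use the filter. With the median-of-ratios factors 19 genes were lower in Nfat5-KO_600. With a pseudocount of 1 FPKM, the counts of at least 2-fold were 0 lower (Nfat5-KO_300 against Scr_300), 8 lower (Nfat5-KO_600 against Scr_600), 13 higher (Scr_600 against Scr_300) and 5 higher (Nfat5-KO_600 against Nfat5-KO_300), and the medians of the last 3 were -0.57, 0.56 and 0.14, with a median difference of the steps of -0.36. With 0.01 FPKM the median of Nfat5-KO_600 against Scr_600 was -0.90. With a mean over the groups of at least 1 FPKM, 9 genes were lower in Nfat5-KO_600 than Scr_600 and 13 higher in Scr_600 than in Scr_300. At 1.5-fold, 2 genes were higher and 6 lower in Nfat5-KO_300, 29 lower in Nfat5-KO_600, and 1 lower at 600 mosmol/kg in each genotype. With the same FPKM sum in every group, the medians with osmolality were 1.00 in Scr and 0.59 in Nfat5-KO cells and the median difference was -0.41. That scaling placed the median of all genes at 0.11 for Nfat5-KO_600 against Scr_600, 0.09 for Scr_600 against Scr_300 and 0.20 for Nfat5-KO_600 against Nfat5-KO_300. Genes higher and lower by 2-fold numbered 654 and 407 for Nfat5-KO_600 against Scr_600, beside 491 and 481 as reported, and 1318 and 274 for Nfat5-KO_600 against Nfat5-KO_300, beside 812 and 534. Of the ratios of single genes, 609 stayed on their side of 2-fold, 21 came to less than 2-fold (18 of them with a pseudocount of 1 FPKM), 6 came to 2-fold or more and 12 changed sign, 8 of them under the same FPKM sum (among them Oas1a, B2m and H2-D1 with osmolality in the knockout) and 4 under the median-of-ratios factors. None of these 12 exceeded 0.24 in size as reported. Ratios with a group under 0.1 FPKM, such as those of Oas3 and Gbp2 between Nfat5-KO_600 and Scr_600, were not among those followed here. Under the same FPKM sum the knockout differences of Bst2 (-0.94) and Irgm1 (-0.99) at 600 mosmol/kg came to just under 2-fold, and under the median-of-ratios factors those of Stat2 (-1.02) and Psmb10 (-1.02) to just over it.

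No paired analysis was possible because the deposited columns hold 1 value per group and carry no replicate numbers, and leaving out single libraries was not run for the same reason. The unknown read depth limits the genes under 0.5 FPKM most.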
